A study of Saccharomyces cerevisiae
Saccharomyces paradoxus with 24 samples.

Results

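The small-subunit ribosomal protein (RPS) genes of Saccharomyces cerevisiae were followed through the loss of Rap1 from their promoters. The RPS promoter windows are the ChIP-seq windows whose midpoint lay from 0 to 500 bp upstream of the start of the open reading frame (ORF) of an RPS gene and not likewise upstream of a large-subunit (RPL) gene. This rule found 46 of the 1118 windows in the table, each at a different RPS gene, and it used no signal values. They include both paralogs of 18 duplicated genes, which are named A and B.

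Ribosomal protein genes are among the most highly transcribed genes of growing yeast. Rap1 binds upstream of most of them through its DNA-binding domain and helps to bring in Fhl1, Ifh1 and Hmo1, and their transcription is tied to nutrient signalling through TORC1. Most RPS genes exist as 2 paralogs that encode nearly the same protein but have different promoters, so a pair offers 2 promoters with the same regulator for the same ribosomal subunit.

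In the anchor-away method, rapamycin joins a tagged protein to an anchor that carries it out of the nucleus. Here the anchor was RPL13A-2xFKBP12, itself a ribosomal protein, and Rap1 carried FRB and 2xV5 inserted at residue 134. The 16 V5 ChIP libraries came from 2 SIR strain isolates (JRy15237, isolate 1, and JRy15238, isolate 2), each sampled at 0, 5, 10, 15, 20, 30, 45 and 60 min of 7.5 µM rapamycin. IP to input ratios came from the input library of each isolate at 0 min, and all other groups are not analysed here. Both isolates had the same genotype: TOR1 with S1972I and fpr1::NAT, which spare growth from rapamycin itself, a unique HML with SNPs in place of hmlalpha, hmrdelta::HygMX, bar1delta::k.l.URA3, and the markers lys2, ura3, trp1-1, can1-100, leu2-3,112 and his3-11,15. The 0 min cells received DMSO for 60 min in place of rapamycin. S. paradoxus cells with Rap1-2xV5 were added to each sample as a spike-in, and the authors counted reads within 150 bp of each peak summit and expressed them per 1000000 spike-in reads. This quantity is called the Rap1 signal here. Each time has n = 2, and values after ± are the SD of the 2 isolates.

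The annotation holds 56 RPS genes. RPS16A, RPS16B and RPS22A were left out because their window also lies upstream of an RPL gene. RPS8A, RPS25A, RPS25B, RPS26A, RPS26B, RPS28A and RPS28B had no window that met the rule in the table used here. Window midpoints lay from 25 bp (RPS29B) to 485 bp (RPS7A) upstream, with a median of 304 bp. The nearest window beyond the limit lay 553 bp upstream of RPS25A and had a 0 min signal of 435.4, of which 15.3% was left at 60 min, beside 1559 and 36.6% at RPS7A. The windows of RPS22B, RPS29A and RPS29B overlapped the start of the ORF. A further ORF started within 500 bp on the far side of 14 of the 46 windows.

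The libraries held 4397759 to 9219038 S. paradoxus reads, and 58299 to 252029 reads fell in the 46 windows. In the shallowest case a window held 82 reads, so counting error is largest at the weakest windows. All 46 windows were higher in isolate 2 than in isolate 1 at 0 min, at a median ratio of 1.48. The ratio was 1.30 at 10 min, 1.09 at 20 min and 1.34 at 60 min, so a part of the difference between isolates is a shift shared by all windows. Peaks were called on the 0 min samples against an untagged sample, so every window had to be high at the start.

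Rap1 signal stayed longer at the median RPS promoter than at the median window of the genome, and more of it was left after 60 min. No test of this difference between groups of windows was run. The median RPS window kept 79.4% of its 0 min signal at 10 min, when the median of all windows was at 49.2%. At 20 min these medians were 45.6% and 21.0%, and at 60 min they were 29.5% and 18.1%. RPL promoters had 82.3%, 53.3% and 33.5% left at these times. The 344 windows upstream of other ORFs had 40.8% at 10 min and 14.2% at 60 min. At 60 min the RPS windows spread from 8.88% at RPS30A to 83.7% at RPS15, with 14 windows above 50% and 10 windows under 20%.

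**Figure D1:**
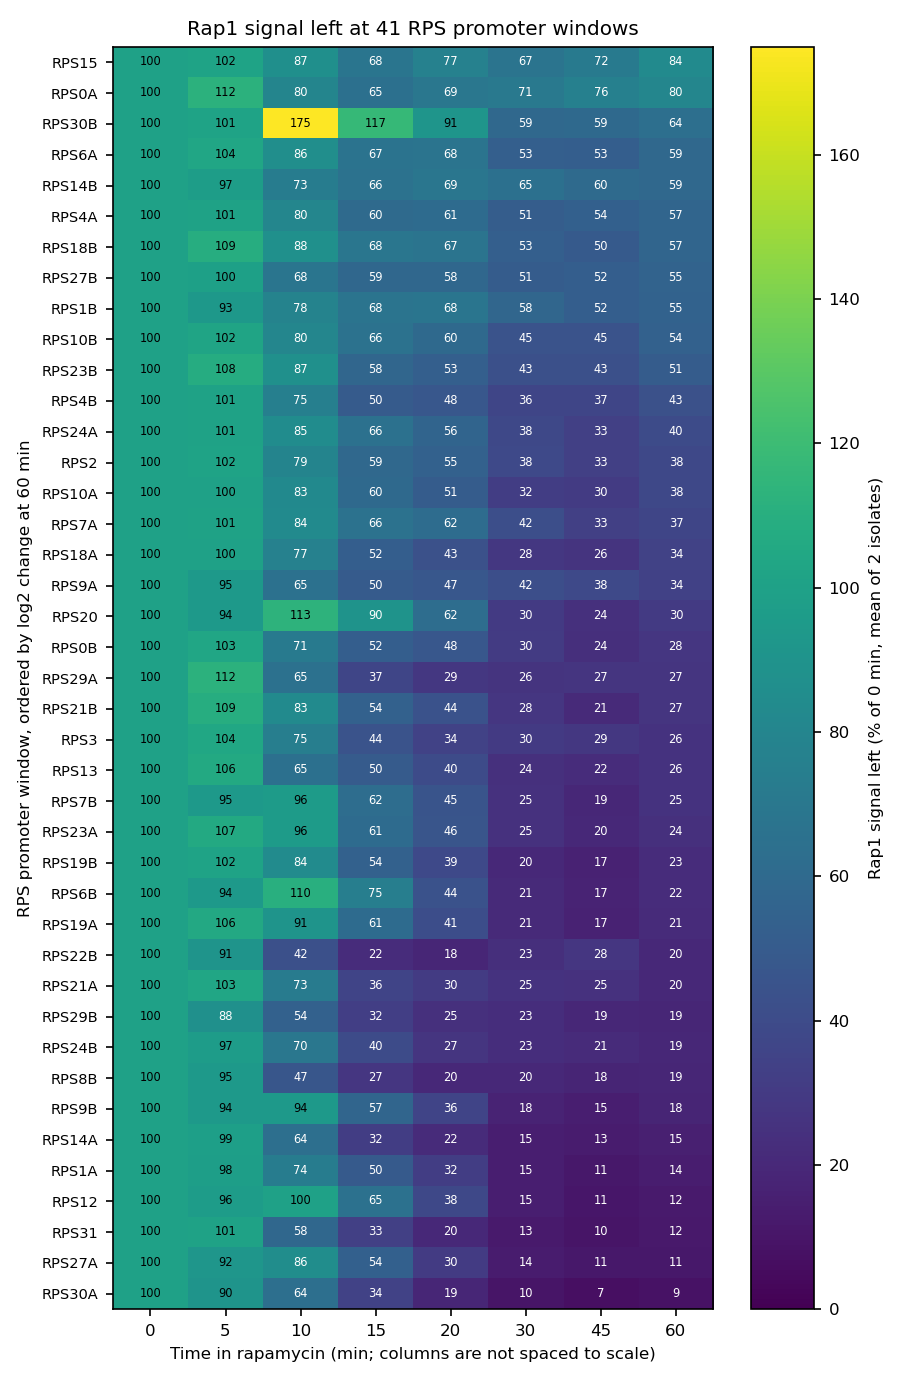
Rap1 signal left at 41 of the 46 RPS promoter windows (rows, ordered by the log2 change at 60 min) at 8 times in rapamycin (columns), as a percentage of the same isolate's 0 min signal averaged over 2 isolates. RPS15 and RPS0A in the top rows keep 83.7% and 80.3% at 60 min, RPS30A in the bottom row keeps 8.88%, and RPS30B alone passes 150% at 10 min.

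By limma on log2(signal + 1) across all windows, with Benjamini-Hochberg adjustment and a threshold of 0.05, no RPS window had changed at 5 min. None of the 1118 windows had either, and the count at an unadjusted p under 0.05 was 0 RPS windows and 39 windows in all. At 10 min 9 of the 46 RPS windows had fallen, against 73.1% of all windows. At 15 min 42 had fallen, against 94.3% of all windows. At 60 min 43 had fallen relative to the spike-in, against 96.0% of all windows, but with each library scaled to its total over all windows 24 were lower and 14 higher (77.1% and 11.6% of all windows), and with scaling to the median window 4 were lower and 34 higher (27.5% and 42.8% of all windows). The direction at 10 min also turned, with 4 lower and 7 higher under scaling to the total (65.0% and 7.16% of all windows), and 0 lower and 44 higher under scaling to the median window (26.6% and 44.5%). The median change over all windows at 60 min was -2.40 on the log2 scale with the spike-in, -1.06 with the total and 0.12 with the median window, so falls named below are falls relative to the spike-in. With the isolate as a block the 10 min count was 17, against 78.6% of all windows. The 9 windows became 2 without the 0 min library of isolate 2 or the 10 min library of isolate 1, and 23 without the 0 min library of isolate 1. The shares of all windows without these libraries are not given here.

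The strongest RPS promoter at 0 min was that of RPS24A (eS24, a protein of the small-subunit body), where the signal was 2020 in isolate 1 and 2835 in isolate 2. It had 1842 and 2224 at 10 min, 1278 and 1387 at 20 min, and 857.4 and 1074 at 60 min. The 60 min values lay below both 0 min values, at a log2 change of -1.32 (limma, adjusted p = 1.59e-06). RPS4A, the gene whose promoter the study used as a Rap1 target, had 1284 and 1920 at 0 min, 1146 and 1365 at 10 min, 930.8 and 960.5 at 20 min, and 786.4 and 1024 at 60 min. Its 60 min values were both below its 0 min values, with a log2 change of -0.81 (adjusted p = 0.00329). Without the 0 min library of isolate 2 its change was -0.52 and did not pass.

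RPS1A, RPS30A and RPS4B were also among the 6 highest windows, with means of 1710 ± 424, 1665 ± 347 and 1655 ± 449. Of the 46 RPS windows 16 were among the 100 highest of all 1118 windows at 0 min, and the first stood at rank 40. Above the median of all windows lay 41 RPS windows. The median 0 min signal was 724.8 at RPS windows and 119.3 over all windows. These ranks are of signal not divided by input. The input signal at 0 min was 236.6 to 410.9 at RPS windows and reached 51372 over all windows. Across the 46 windows the 0 min signal and the percentage left at 60 min had Pearson's r of 0.07 and Spearman's rho of 0.16. These windows share libraries, and the percentage contains the 0 min signal, so the coefficients are descriptions only. Within pairs the paralog with the stronger 0 min window kept more in 12 of 18.

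**Figure D2:**
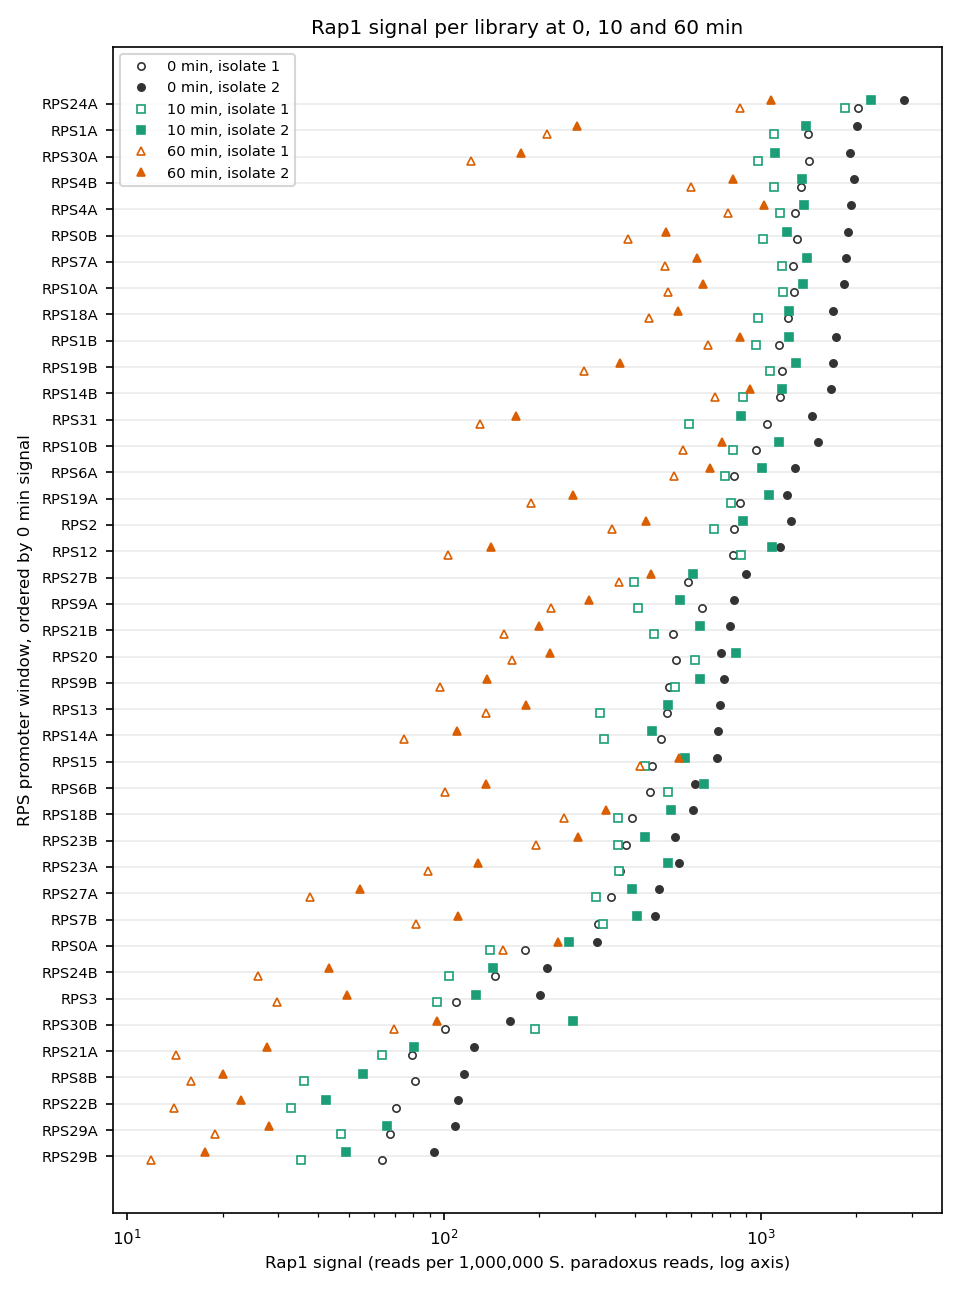
Rap1 signal at 41 of the 46 RPS promoter windows in each isolate at 0, 10 and 60 min, on a log axis of reads per 1000000 S. paradoxus reads, ordered by the 0 min mean. Open symbols are isolate 1 and filled symbols isolate 2. The 60 min signal is below the 0 min signal of the same isolate at all 41 windows drawn, by little at RPS15 and RPS0A and by most at RPS30A.

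The weakest 4 windows, RPS8B, RPS22B, RPS29A and RPS29B, had 0 min signals of only 78.4 to 98.1. Their IP to input ratio was 0.65 to 0.95 of that of the median window, whereas the other RPS windows ranged from 0.80 to 19.3. They had 42.4% to 65.4% left at 10 min and 18.5% to 26.9% at 60 min. All 4 belong to the 9 windows that had fallen at 10 min. The others were RPS9A, RPS13, RPS14A, RPS30A and RPS31. Among these 5, RPS31, which encodes ubiquitin fused to a protein of the small-subunit head, went from 1042 and 1450 at 0 min to 593.5 and 864.0 at 10 min. Both 10 min values lay below both 0 min values, and its log2 change was -0.78 (adjusted p = 0.00659). The rule left out stronger windows farther upstream of RPS8B, RPS29A and RPS29B. They lay at 738, 779 and 641 bp, with 0 min signals of 577.1, 536.9 and 440.5. At 60 min they had 27.6%, 30.2% and 20.1% left. Those of RPS29A and RPS29B also lie upstream of REH1 and TSR1.

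At 8 windows at least 90% of the signal was still present at 10 min, although most of them lost more than the median RPS window later. They were RPS6B, RPS7B, RPS9B, RPS12, RPS19A, RPS20, RPS23A and RPS30B. RPS12 (eS12, in the head) had 818.9 and 1148 at 0 min, 831.1 and 1049 at 5 min, and 868.3 and 1085 at 10 min. It then went to 607.3 and 644.0 at 15 min, 358.1 and 373.9 at 20 min, and 126.4 and 164.7 at 30 min. The 5 and 10 min values lay within the range of the 0 min values, and 12.4% was left at 60 min. RPS20 (uS10) had 537.7 and 750.0 at 0 min, 620.8 and 833.7 at 10 min, 387.2 and 396.4 at 20 min, and 163.6 and 215.8 at 60 min. RPS6B, a gene for the phosphorylated protein eS6, had 447.6 and 618.4 at 0 min, 508.9 and 659.0 at 10 min, and 100.5 and 135.3 at 60 min. Both windows were above their 0 min value in both isolates at 10 min, by log2 differences of 0.18 and 0.14 that did not pass (adjusted p = 0.548 and 0.640).

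RPS30B was the exception to the general fall. Its window, chromosome XV from 678854 to 679155 in the modified sacCer3 of the table, lies between RPS30B and SER1, a serine biosynthesis gene. The signal was 101.0 in isolate 1 and 161.3 in isolate 2 at 0 min, and 103.0 and 162.8 at 5 min. At 10 min it was 193.3 and 255.7, above both 0 min values. It was 139.5 and 154.7 at 15 min, 105.0 and 126.2 at 20 min, 68.7 and 81.8 at 30 min, and 69.7 and 94.8 at 60 min. The 10 min mean was 175.0% of the start, with a log2 change of 0.80 (adjusted p = 0.00545). It was the only rise called among the 1118 windows at 10 min (0.0894% of all). Without the 0 min library of isolate 1 the log2 change was 0.46 (adjusted p = 0.147), and without the 10 min library of isolate 2 it was 0.59 (adjusted p = 0.0869). At 60 min the window had fallen by 0.64 on the log2 scale (adjusted p = 0.0189), which did not pass without the 0 min library of isolate 2 (-0.31) or the 60 min library of isolate 1 (-0.43).

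The largest falls at 60 min were those of RPS30A, RPS27A, RPS31, RPS12 and RPS1A. At RPS30A (chromosome XII, 713215 to 713516), which encodes eS30 of the body, the signal went from 1420 and 1910 at 0 min to 979.5 and 1111 at 10 min, 285.9 and 323.4 at 20 min, and 121.6 and 175.5 at 60 min. The groups were far apart, with a log2 change of -3.49 (adjusted p = 5.11e-36). RPS27A, for the zinc-binding protein eS27, went from 336.9 and 477.9 to 37.7 and 54.4, a log2 change of -3.12. RPS31 and RPS12 changed by -3.04 and -3.00, and RPS1A by -2.83. The standard error was 0.272 at every window because limma pooled the spread over all of them, so the size of a very small p-value says little about replicates.

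RPS15 and RPS0A were among the 3 windows that did not pass at 60 min. RPS15 encodes uS19 of the head, and its window is shared with RPP2A, a gene for an acidic stalk protein of the large subunit. Its signal was 453.6 and 726.8 at 0 min, 429.8 and 577.8 at 10 min, 350.4 and 419.7 at 30 min, and 414.5 and 552.7 at 60 min. The 60 min values overlapped the 0 min values, with a log2 change of -0.26 (adjusted p = 0.338). RPS0A (uS2) had 179.8 and 304.0 at 0 min, 139.7 and 248.7 at 10 min, 131.0 and 171.0 at 15 min, and 153.6 and 228.7 at 60 min, and its values also overlapped (-0.32, adjusted p = 0.248). Within each isolate all 46 windows were below their 0 min signal from 30 min on, including these.

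Rates were described by a decay to a plateau fitted to each window and isolate, and a fit passed when the log rate had p under 0.05 in both isolates. That p-value tests the rate against 1 per min and not against 0, so a pass does not show that a window decays. The fit passed at 42 of the 46 windows, against 90.9% of all windows. The residence time, the inverse of the fitted rate, had a median of 16.7 min over these 42, compared with 9.50 min over all windows with a passing fit and 19.1 min over the RPL windows. It ran from 8.70 min at RPS22B to 30.7 min at RPS6B. The median was 19.9 min in isolate 1 and 13.9 min in isolate 2, and isolate 1 had the longer time at 41 of 42 windows. RPS0A, RPS15, RPS20 and RPS30B did not pass. The 2 longest times belonged to windows that stayed level for 10 min, RPS6B and RPS12 (27.7 min), whereas a window that levelled off high could have a short time, such as RPS27B (10.9 min). Residence time and the signal left at 60 min therefore ranked these promoters differently. The fitted plateau was below 0 in at least 1 isolate at RPS6B, RPS9B, RPS12, RPS27A and RPS30A. Without the 0 min sample the median residence time was 9.47 min, and with the plateau fixed at 0 it was 28.0 min.

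Paralogous promoters lost Rap1 to different extents. Comparing A with B inside each library removes the scaling of that library, and the ratios of the isolates lay close together, with a median gap of 0.09 on the log2 scale at 0 min. In 13 of 18 pairs the ratio of A to B differed between 0 and 5 min (4 libraries) and 20 to 60 min (8 libraries) by a 2-sided exact permutation test at p under 0.05. The same 13 pairs had early and late values that did not overlap, and each had an exact permutation p = 0.00404, the smallest that the 495 arrangements allow. Most of the 28 RPL pairs had this smallest p as well, so it does not set the RPS pairs apart. Among all 46 RPS and RPL pairs 80.4% were called at p under 0.05, so the RPS count is near that background. These p-values are not adjusted, and libraries of an isolate belong to a single time course. In 7 of the 13 pairs A lost more, and in 6 B lost more. In all 18 pairs the change of the ratio from 0 to 60 min had the same sign in both isolates, as it had in every RPL pair. The change in A differed from that in B by 0.07 to 2.84 on the log2 scale, with a median of 0.81. For 9 pairs the 95% interval of that difference, from the limma standard errors of the single windows without a block, did not include 0. These intervals, given below, leave out that A and B were compared within an isolate. With limma on the ratio within each library and the isolate as a block, which was added after the values were seen, the interval did not include 0 in 17 of the 18 pairs, against 97.8% of the 46 RPS and RPL pairs.

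RPS30 had the largest divergence. RPS30A had 13.9 times the signal of RPS30B in isolate 1 at 0 min and 11.8 times in isolate 2, but only 1.73 and 1.84 times at 60 min. The difference of their changes was -2.84 (95% interval -3.60 to -2.09). The input signal of A was 1.17 and 0.90 times that of B. RPS27 followed, with RPS27A at 0.575 and 0.532 of RPS27B at 0 min and 0.108 and 0.122 at 60 min. RPS27B (chromosome VIII, 148939 to 149240) had 587.0 and 898.5 at 0 min, 409.6 and 421.4 at 20 min, and 356.1 and 451.4 at 60 min. So RPS27B kept 55.5% while RPS27A kept 11.3%, a difference of -2.26 (-3.02 to -1.51).

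In RPS1, whose protein eS1 sits near the mRNA exit, the order of the paralogs turned over. RPS1A was 1.24 and 1.17 times RPS1B at 0 min and 0.310 and 0.307 times at 60 min. RPS1A went from 1411 and 2010 to 211.1 and 262.5, and RPS1B from 1142 and 1722 to 682.7 and 857.7. The difference of changes was -1.96 (-2.72 to -1.21). RPS10 and RPS4 also changed order in both isolates. RPS4A was 0.960 and 0.973 of RPS4B at 0 min and 1.30 and 1.25 at 60 min, and RPS10A went from 1.32 and 1.21 times RPS10B to 0.894 and 0.871. In those 2 pairs the intervals from the single windows, -0.35 to 1.16 for RPS4 and -1.27 to 0.24 for RPS10, included 0, but the ratio changed by 0.44 and 0.36 in the 2 isolates for RPS4 and by -0.56 and -0.47 for RPS10. In the blocked fit of the ratio the intervals were 0.29 to 0.52 and -0.65 to -0.38, without 0.

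RPS14A fell from 484.9 and 733.7 at 0 min to 125.5 and 130.6 at 20 min and 74.9 and 109.7 at 60 min. RPS14B had 1153 and 1661, 919.3 and 967.3, and 717.8 and 924.0 at these times. RPS14 encodes uS11 of the platform, and the ratio of A to B went from 0.421 and 0.442 to 0.106 and 0.120, a difference of changes of -1.94 (-2.70 to -1.18). RPS0 moved the other way. RPS0B had 1299 and 1880 at 0 min and 381.6 and 501.4 at 60 min, while RPS0A overlapped its start, so the ratio of A to B went from 0.139 and 0.162 to 0.404 and 0.457. The difference of changes was 1.52 (0.76 to 2.27). RPS6, RPS23, RPS24 and RPS9 were the other pairs whose interval did not include 0 without the block. RPS23A and RPS23B, for uS12 of the decoding region, started level with A to B ratios of 0.957 and 1.03, and ended at 0.459 and 0.485.

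RPS9, RPS6 and RPS27 were among the pairs whose ratio moved one way in the first 10 min and then the other way. RPS9A had 649.8 and 823.1 at 0 min, 409.1 and 555.2 at 10 min, and 218.0 and 286.4 at 60 min. RPS9B, the other gene for uS4, had 514.6 and 764.6, 535.8 and 641.6, and 97.2 and 136.8 at these times. The ratio of A to B was thus 1.26 and 1.08 at 0 min, 0.764 and 0.866 at 10 min, and 2.23 and 2.08 at 60 min, with a difference of changes at 60 min of 0.89 (0.13 to 1.64). RPS6A had 823.6 and 1279 at 0 min and 530.9 and 688.4 at 60 min, and its ratio to RPS6B was 1.84 and 2.07 at 0 min, 1.52 in both isolates at 10 min, 5.28 and 4.48 at 30 min, and 5.24 and 5.06 at 60 min. The difference of changes was 1.40 (0.65 to 2.16). In RPS27 the ratios were 0.756 and 0.642 at 10 min and 0.286 and 0.299 at 20 min. RPS24 was uneven throughout, RPS24A having 13.9 and 13.4 times the signal of RPS24B at 0 min and 31.9 and 24.3 times at 60 min. The weak RPS24B window went from 144.5 and 210.6 to 25.9 and 43.3.

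The RPS19 pair changed least. RPS19A, for a head protein whose human counterpart is mutated in Diamond-Blackfan anaemia, was 0.738 and 0.717 of RPS19B at 0 min and 0.679 and 0.712 at 60 min (exact permutation p = 0.804). The difference of changes was -0.07 (-0.82 to 0.69, and -0.20 to 0.063 in the blocked fit of the ratio, where RPS19 alone included 0). RPS29 and RPS21 were also among the 5 pairs that did not pass, with exact permutation p = 0.210 and 0.469.

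**Figure D3:**
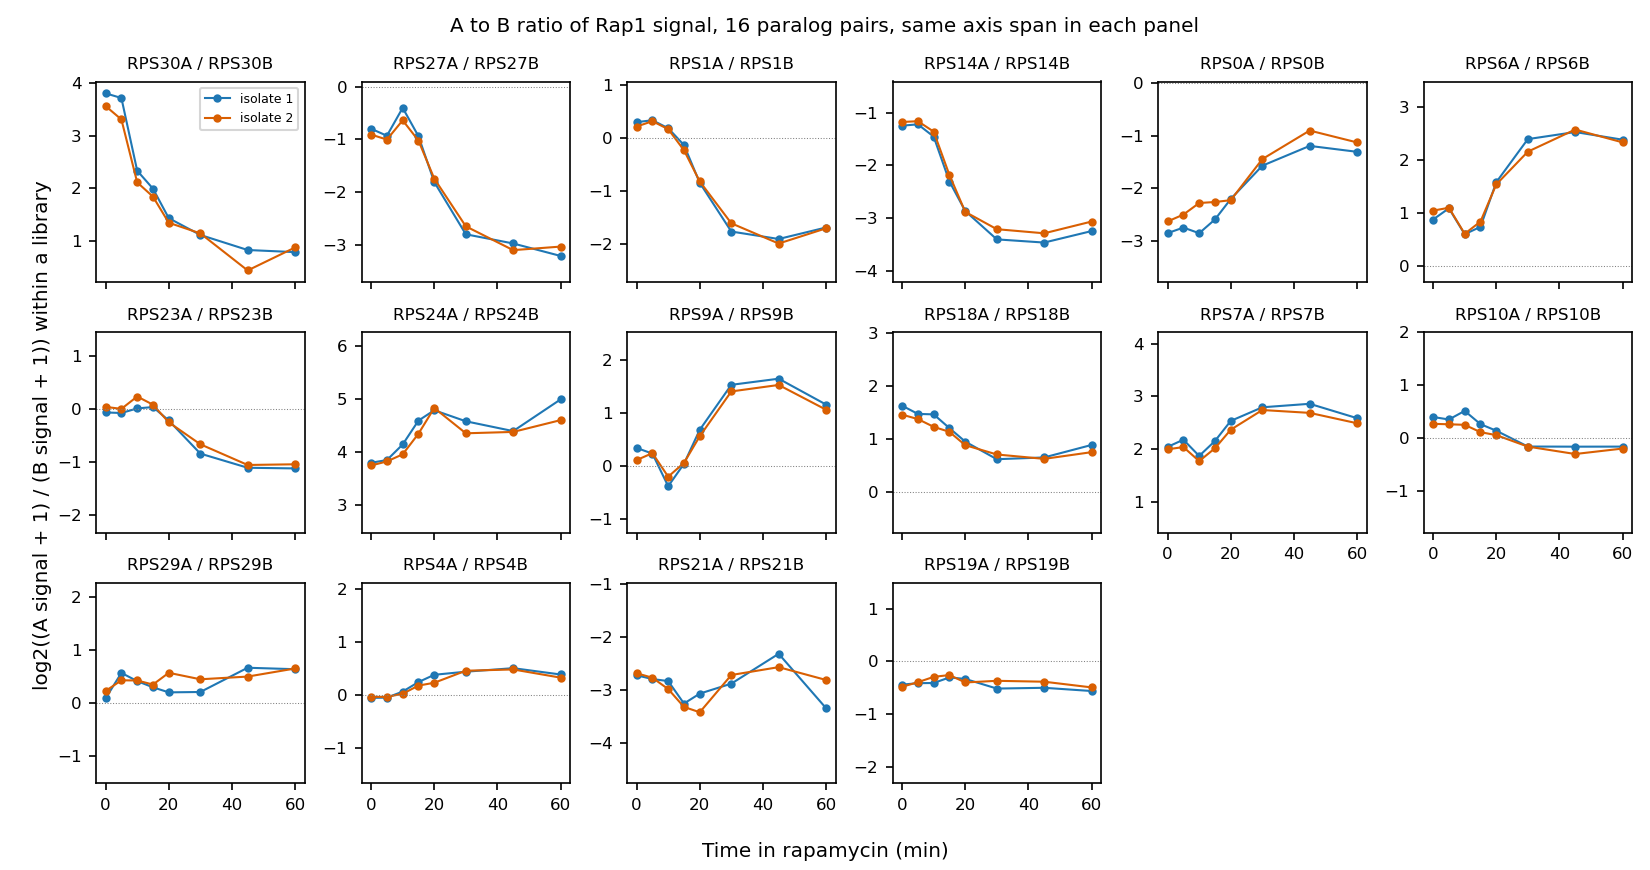
The log2 ratio of A to B Rap1 signal within each library against time in rapamycin for 16 of the 18 RPS pairs, ordered by the size of the difference at 60 min, with blue for isolate 1, orange for isolate 2 and the same axis span in every panel. The isolates run together, the ratio moves by about 2 to 3 log2 units in RPS30, RPS27, RPS1 and RPS14, and it stays nearly level in RPS19.

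Position went with the amount left. The 22 windows within 300 bp of the ORF start kept a median of 23.4% at 60 min, and the 24 windows farther upstream kept 39.1%. The weakest windows, RPS8B, RPS22B, RPS29A and RPS29B, all lay within 300 bp, and most windows also upstream of another ORF lay farther away. The split by distance is therefore not one of position alone. Across the 46 windows the distance and the percentage left had Pearson's r of 0.42 and Spearman's rho of 0.46. Across the 32 windows upstream of a single ORF Spearman's rho was 0.49. Within pairs the paralog with the more distant window kept more in 12 of 18. The 14 windows that also lay upstream of another ORF kept a median of 54.7%, and the 32 windows that did not kept 25.7%. At windows outside the ribosomal protein genes these medians were 15.1% for 71 windows upstream of more than 1 ORF and 14.1% for 273 windows upstream of 1 ORF. In 7 pairs only 1 of the paralogs had such a shared window. The shared window kept more in 4 of them, RPS30, RPS27, RPS1 and RPS14, and less in RPS0, RPS9 and RPS10. The windows share libraries, so these splits carry no test, and the split by shared windows was chosen after the values were seen. Whether the protein sits in the head or the body made little difference to the medians: 16 head genes had 32.0% left and 30 body genes had 28.7%.

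**Figure D4:**
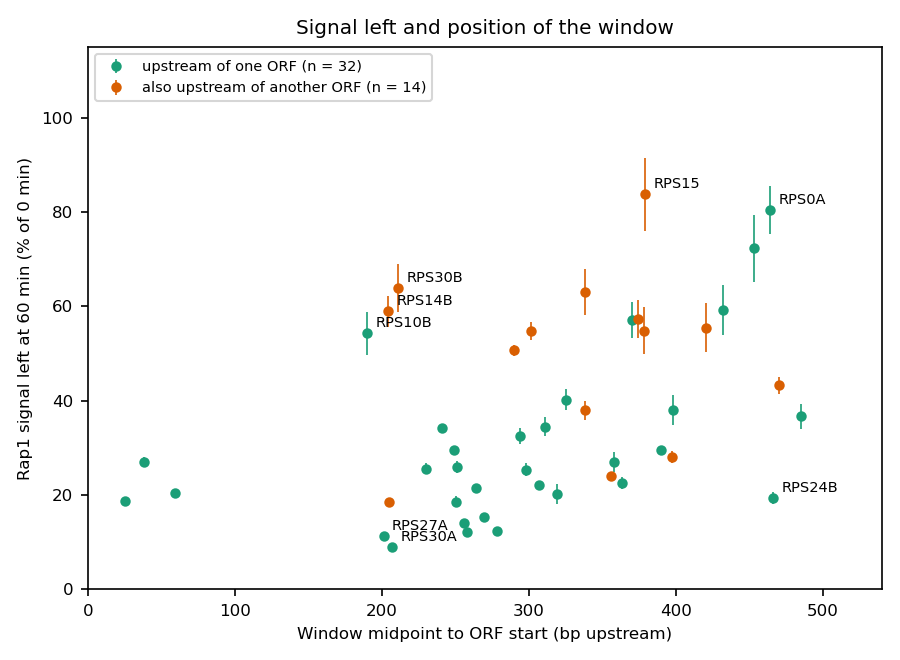
Rap1 signal left at 60 min, as a percentage of 0 min, against the distance from the window midpoint to the ORF start in bp, for 32 windows upstream of a single ORF (green) and 14 also upstream of another ORF (orange). Points are means and bars span the 2 isolates. RPS15, RPS0A and RPS30B are among the windows with over 60% left, and RPS24B at 466 bp is low for its distance at 19.2%.

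The table also holds windows inside the genes themselves. For 34 of the 46 genes 40 further windows had their midpoint in the coding sequence, from 550 to 1399 bp away from the promoter window, and none of them lay within 500 bp upstream of another ORF. Their 0 min signal was low, at a median of 99.1, beside 119.3 over all windows. At 10 min they had a median of 54.9% left with a range from 44.4% to 70.0%, beside a median of 49.2% over all windows. Of the 40, 38 had less left than the promoter of the same gene at that time. At 60 min they had a median of 23.5% left and all 40 had fallen by limma, against 96.0% of all windows. By then they ranked as their promoters did. Spearman's rho between coding and promoter windows was 0.28 at 10 min and 0.88 at 60 min across the 40 windows, and within isolates the 60 min value was 0.85 and 0.89. The windows share libraries and some share a promoter window, so these are descriptions.

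Coding sequences of paralogs are nearly alike and reads from them can be assigned to either gene, so 6 single-copy genes with such a window are given separately. At RPS12, RPS31, RPS13 and RPS3 the coding window kept 9.08%, 12.9%, 17.7% and 16.3% at 60 min, and the promoter window kept 12.4%, 12.1%, 25.6% and 25.9%. At RPS2, for uS5 at the mRNA entry, they kept 30.1% and 38.0%. At RPS15 the coding window kept 52.3% and the promoter window 83.7%. Of these 6 genes RPS15 kept the most in both windows, and RPS12 and RPS31 kept the least in both. At 10 min these coding windows lay between 44.4% and 59.2%. Whether fragments that reach from the promoter contribute to the coding windows was not tested. The study cautions that ChIP signal at highly transcribed loci is often an artifact. Whether this holds for the coding windows was not tested either. Their IP to input ratios are not given here, and they were not compared with the untagged sample.

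**Figure D5:**
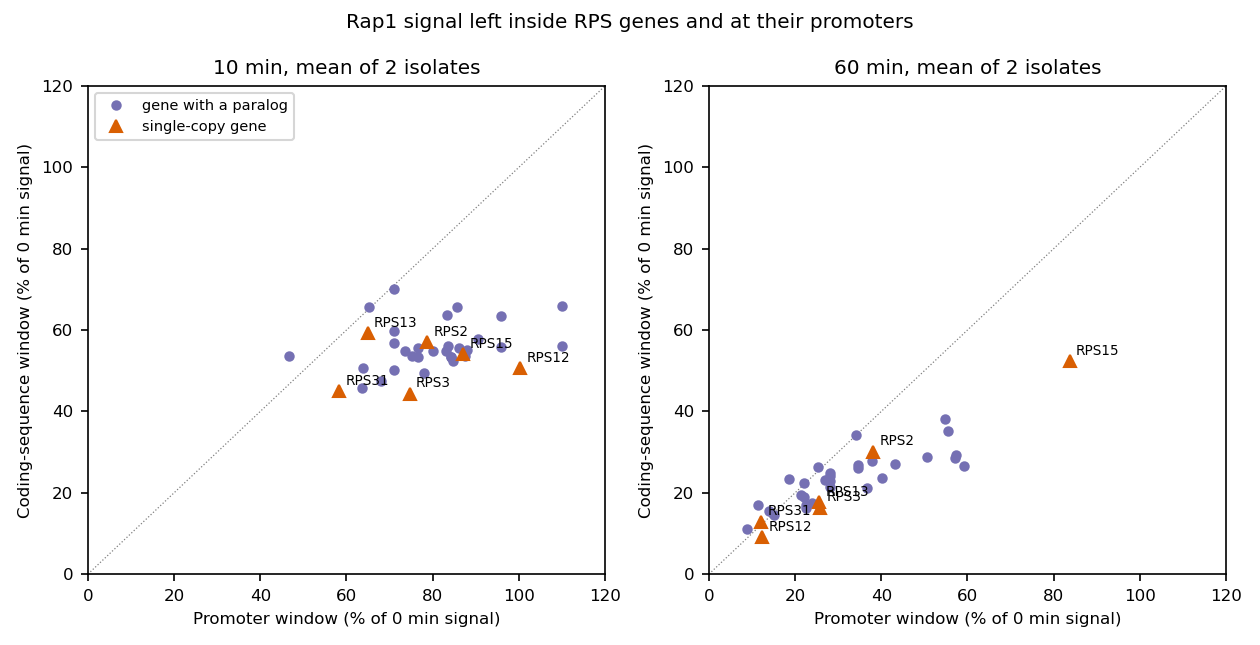
Rap1 signal left in 36 of the 40 coding-sequence windows against the promoter window of the same RPS gene at 10 min (left) and 60 min (right), as percentages of 0 min averaged over 2 isolates, with single-copy genes as labelled triangles and the dotted line marking equality. At 10 min the coding windows lie in a band from 44.4% to 70.0% whatever the promoter keeps, and at 60 min they rise with it from 9.08% at RPS12 to 52.3% at RPS15.

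Between 45 and 60 min the RPS windows showed no further fall that passed a test. The mean percentage left was lowest at 45 min at 30 of the 46 windows and at 60 min at 6. From 45 to 60 min the signal rose in both isolates at 30 RPS windows, and this held for 10.7% of all windows. The median log2 difference was 0.22 at RPS windows and -0.14 over all windows. No window passed in this comparison, which was added after the values were seen: by limma 0 of 1118 had an adjusted p under 0.05, and 0 had an unadjusted p under 0.05. The summed RPS signal was 12295 at 45 min and 12755 at 60 min in isolate 1, and 13196 and 16720 in isolate 2, so most of the difference lay in isolate 2. The median RPS window went from 32.9% to 29.9% of its start in isolate 1 and from 21.0% to 29.2% in isolate 2.

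Other genes of ribosome production were covered unevenly. The counts of windows fallen at 60 min in this paragraph stand beside 96.0% of all windows. Of 67 RPL windows 64 had fallen at 60 min, and RPL2B, the highest at 0 min with 4199 ± 858, kept 18.4%. Of 3 windows at genes of the acidic stalk proteins (RPP) 2 had fallen, and the highest is the RPS15 window already described. Of 55 small-subunit assembly factor genes 7 had a window, and all 7 had fallen at 60 min with a median of 20.1% left. The highest was upstream of BUD22, a factor of small-subunit biogenesis, with 2007 ± 336 at 0 min and 36.5% left. None of 14 genes for regulators of ribosomal protein genes had a window that met the rule.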

How the data were processed

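The authors aligned reads with Bowtie2 to S. paradoxus joined to a modified sacCer3 and used SAMtools and CASAVA 2.2, per the labels and the study's methods. They deposited a signal, reads within 150 bp of each MACS3 summit per 1000000 S. paradoxus reads, and whole-library counts of S. paradoxus reads without rDNA. Signal times S. paradoxus reads came within 0.01 of a whole number for 100% of values. These products gave the depths only, and no count test was run. The 14 columns of other input libraries and 1 line that is no window were not used. ORF starts came from the R64 annotation by locus tag, and positions are as in the table. On chromosome III the modified loci could shift the distance of RPS14A.

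limma 3.58.1 (R 4.3.3) was fitted to log2(signal + 1) of the 16 ChIP libraries with time as a factor and no block, adjusted over 1118 windows at 0.05. On data simulated for 60 against 0 min over 1118 windows, limma called 11 of 50 falls of 0.5 on the log2 scale, 42 of 50 of 1 and 50 of 50 of 2, with 11 false calls among 918. The simulated noise was independent between windows, and 918 windows did not change. In the real data 96.0% of windows were called lower and the isolates differed by a shared shift. The simulated counts therefore give no error rates for the real data. Decays were fitted with nls and SSasymp, and the residence time of a window averages the log rates of both isolates. Pairs were tested with scipy 1.17.1. Python 3.11.15, numpy 2.4.6, pandas 2.3.3 and matplotlib 3.10.9 were used otherwise. No genome sequence was used here, so promoter motifs were not searched.

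The labels tie each replicate number to 1 strain isolate, so the numbers pair the libraries. Their deviations from the time means correlated from -0.208 to 0.408 over 28 pairs of times (median 0.168). The labels do not describe independent cultures within an isolate, so p-values measure the spread between these samples.

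The members, lists and tests were chosen with earlier results of these data known. The named windows are the 6 highest at 0 min, the 5 largest and 5 smallest falls at 60 min, those not passing, RPS4A, the 5 most and 3 least divergent pairs, and the highest window of each other list. RPS20, RPS6B, the weakest windows, the coding windows and the remaining pairs were chosen for naming with their values known. Some windows count in every total but are not reported here by name. The alternatives were the pseudocount, a signal minimum, scaling, the block, thresholds, distance, the fit and single libraries.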

Additional observations from a re-analysis of the deposited data

How the results depend on the processing

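Scaled to the total over all windows, 24 RPS windows were lower at 60 min and 4 at 10 min, against 77.1% and 65.0% of all windows. At 10 min 7 were higher, against 7.16% of all windows. The median left at 60 min was 76.9%, and 11 RPS windows had a passing decay fit. The share of all windows with a passing fit under this scaling is not given here. Scaled to the median window, 4 were lower at 60 min and 0 at 10 min, when 44 were higher (27.5%, 26.6% and 44.5% of all windows). Among named windows the change at 60 min turned positive with scaling to the total at RPS24A (0.062), RPS4B (0.17), RPS1B (0.51), RPS27B (0.52), RPS4A (0.57), RPS14B (0.61), RPS30B (0.72), RPS0A (1.06) and RPS15 (1.12). With scaling to the median window it was positive at these, with RPS24A at 1.27, RPS4B 1.38, RPS1B 1.71, RPS27B 1.73, RPS4A 1.78, RPS14B 1.82, RPS30B 1.92, RPS0A 2.26 and RPS15 2.32, and also at RPS0B (0.75), RPS19B (0.43) and RPS19A (0.37). The ratio of paralogs does not depend on scaling apart from the pseudocount.

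With a signal minimum of 50 the 10 min count was 5 and the median left 33.3%. At a threshold of 0.01 the 10 min count was 4. With windows limited to 300 bp, 22 were lower at 60 min, 20 had a decay fit and the median left was 23.4%, since 22 windows remained. In alternatives added after seeing the data, the median left was 25.7% at windows upstream of a single ORF and 32.5% without the windows that overlap the ORF. The median residence time was 28.0 min with the plateau fixed at 0 and 9.47 min without the 0 min sample.

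With the replicate block the 10 min count was 17, 44 windows were lower at 60 min, 14 pairs had changed, and with the ratio within each library 17 pairs in place of 9 had an interval without 0. Leaving out each library gave 2 to 23 windows lower at 10 min and 33 to 45 at 60 min, 13 to 14 changed pairs, and changes at 60 min of -0.69 to 0.060 for RPS0A, -0.60 to 0.077 for RPS15, and -0.028 to 0.0047 in the late minus early ratio of RPS19. Without the 0 min library of isolate 2, RPS4A, RPS30B, RPS27B, RPS1B and RPS14B were among the windows that no longer passed at 60 min. The cause of these differences was not tested. Where a count in this section has no share of all windows or pairs beside it, that share is not given here. Such a count describes the RPS windows or pairs only. No sample group is large enough for a search for outlying samples.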
